A study of Mus musculus with 2 samples.

Results

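The cells described are tumour cells in S phase, the part of the cell cycle in which DNA is copied. They are 600 of the 15288 cell barcodes in the series. Eligible barcodes had at least 5000 UMIs (unique molecular identifiers, each standing for a captured RNA molecule), at most 20% mitochondrial UMIs and no UMI of the leukocyte gene Ptprc. They also had at least 5 UMIs per 10000 of the epithelial genes Epcam, Krt8 and Krt18 together, under 20 per 10000 of Wfdc18, and under 5 per 10000 of the G2 and mitosis genes Top2a, Mki67 and Cenpf together. Of the 4877 barcodes that passed, the 600 with the highest summed level of Hells, Mcm6, Mcm5 and Ccne2 were selected on those measured levels and are called S-phase cells here, and the other 4277 are called the other tumour cells. The knockout library held 289 S-phase cells of 1757 that passed, and the control library 311 of 3120. No DNA content was measured, so the name rests on RNA alone.

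The series compared tumours with and without Kindlin-2 grown from 4T1, a line of mouse mammary carcinoma cells that serves to model triple-negative breast tumours. The knockout group came from 4T1 cells given a guide RNA against Kindlin-2 (genotype K2-KO), and the control group from 4T1 cells given a control guide (genotype WT). Both were grown in the mammary fat pads of female mice labelled BLB/c, taken out at 150 mm3, digested for 45 min and sorted as live cells by mCherry. Each group is 1 droplet library, and the labels used here do not give the number of tumours pooled, the number of clones or the proportions of the sorted fractions. With 1 library per group there is no test between groups, and every interval below is an exact 95% interval for counting error only. The same counting intervals hold for S-phase cells against other cells of a library, whose difference the choice of cells itself sets.

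DNA replication starts when the origin recognition complex, Cdc6 and Cdt1 load MCM helicases onto DNA in G1. Cyclin E and cyclin A with Cdk2, and the Cdc7 kinase with Dbf4, then start the helicases with Cdc45 and the GINS complex. Many genes of this machinery are transcribed by E2F factors once cyclin D and cyclin E kinases have inactivated the pocket proteins, and they peak around the start of S phase, whereas mitotic genes peak later. In the score, Mcm6 and Mcm5 are subunits of the replicative helicase, Hells is a chromatin remodeller that supports DNA methylation, and Ccne2 is a cyclin E.

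The promoters below are shown because E2F sites are the best known feature of genes switched on at the start of S phase, and the set holds genes of the score and the members with high ratios described further on. Each is 300 bases around the RefSeq start site on GRCm38.p6, in the direction of transcription. Hells lies at chr19:38930740-38931039 (plus strand), Mcm6 at chr1:128359656-128359955 (minus), Mcm5 at chr8:75109259-75109558 (plus), Cdc6 at chr11:98907901-98908200 (plus) and Rad51ap1 at chr6:126939538-126939837 (minus). Capitals mark the motifs TTTGGCGC, TTTCCCGC, TTTGCCGC and TTTCGCGC on either strand, which may overlap. Ccne2 is named only.
Hells: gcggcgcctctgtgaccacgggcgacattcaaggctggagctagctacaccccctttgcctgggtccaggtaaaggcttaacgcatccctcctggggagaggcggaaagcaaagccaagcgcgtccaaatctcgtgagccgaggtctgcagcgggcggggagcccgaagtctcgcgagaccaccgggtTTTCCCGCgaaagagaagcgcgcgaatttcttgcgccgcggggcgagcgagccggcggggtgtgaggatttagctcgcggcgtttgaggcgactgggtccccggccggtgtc
Mcm6: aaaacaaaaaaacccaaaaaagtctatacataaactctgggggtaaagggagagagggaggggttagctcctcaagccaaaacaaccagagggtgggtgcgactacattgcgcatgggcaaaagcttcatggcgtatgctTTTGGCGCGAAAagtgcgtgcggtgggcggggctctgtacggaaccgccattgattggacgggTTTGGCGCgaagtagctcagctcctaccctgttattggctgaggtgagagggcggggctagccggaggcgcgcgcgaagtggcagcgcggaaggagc
Mcm5: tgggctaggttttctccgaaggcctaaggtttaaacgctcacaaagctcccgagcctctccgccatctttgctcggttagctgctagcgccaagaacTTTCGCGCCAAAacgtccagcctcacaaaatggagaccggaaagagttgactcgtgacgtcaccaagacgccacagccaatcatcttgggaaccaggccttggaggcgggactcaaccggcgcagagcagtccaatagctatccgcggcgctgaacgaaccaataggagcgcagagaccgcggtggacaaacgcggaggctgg
Cdc6: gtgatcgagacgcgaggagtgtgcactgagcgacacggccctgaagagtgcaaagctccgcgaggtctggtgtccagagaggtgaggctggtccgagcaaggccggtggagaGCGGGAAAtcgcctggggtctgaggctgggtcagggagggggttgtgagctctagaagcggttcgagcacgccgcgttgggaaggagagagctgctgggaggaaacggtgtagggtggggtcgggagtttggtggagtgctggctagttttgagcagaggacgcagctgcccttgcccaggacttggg
Rad51ap1: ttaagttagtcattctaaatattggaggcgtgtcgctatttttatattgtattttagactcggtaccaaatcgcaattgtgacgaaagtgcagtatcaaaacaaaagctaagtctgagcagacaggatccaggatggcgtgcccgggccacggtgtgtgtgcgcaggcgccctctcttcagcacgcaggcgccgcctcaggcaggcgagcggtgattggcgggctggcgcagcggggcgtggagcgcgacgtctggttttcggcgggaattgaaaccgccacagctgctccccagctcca
The Hells promoter held 1 such motif (first base at -62 from the start site), Mcm6 held 3 (at -110, -106 and -47), Mcm5 held 2 that overlap (at -153 and -149), Cdc6 held 1 (at -138) and Rad51ap1 held 0. Counted by gene, where any promoter of the gene could hold it, a motif of this kind stood in 704 of 27018 genes with a RefSeq promoter, or 2.61%. Of genes measured here it stood in 500 of the 10792 with a promoter sequence, or 4.63%. Among genes at least 1.5-fold higher in S-phase cells in both libraries it was in 102 of 746 (13.7%), and among those at least 1.5-fold lower in 21 of 1069 (1.96%). It stood in 32 of 105 genes of the replication lists described below (30.5%), and in 2 of 35 genes of the G2 and mitosis list (5.71%). Genes of the selection rule were not left out of these motif counts. The 746 and the 105 thus include Hells, Mcm6 and Mcm5, which hold the motif and also chose the cells. That mitosis list instead held the CHR motif TTTGAA in 71.4% of its genes, against 20.2% of all genes with a promoter, and CCAAT in 80% against 41.1%, both motifs counted on either strand. A match is a description of the letters and not of binding.

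The score that chose the cells ended at 3.67 per 10000. The 10 cells just inside it scored 3.67 to 3.69 (2 knockout, 8 control), and the 10 just outside scored 3.61 to 3.66 (6 knockout, 4 control), so the boundary cuts through a continuous range. The score reached 13.7 in the knockout library and 18.2 in the control library. S-phase cells held a median of 52151 UMIs in the knockout library, against 35382 in its other tumour cells, and 48082 in the control library, against 32674 in its other cells. Median mitochondrial shares were 3.19% in knockout S-phase cells and 3.59% in the other knockout cells, and 3.0% in control S-phase cells and 3.21% in the other control cells. S-phase cells therefore carried more RNA per droplet, and levels are given below as CPM, a gene's share of the UMIs summed over a group of cells on the usual CPM scale. Of the 600 cells, 1 was called a doublet by Scrublet. The libraries shared 13 barcode sequences, and no sequence was an S-phase cell in both.

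**Figure D1:**
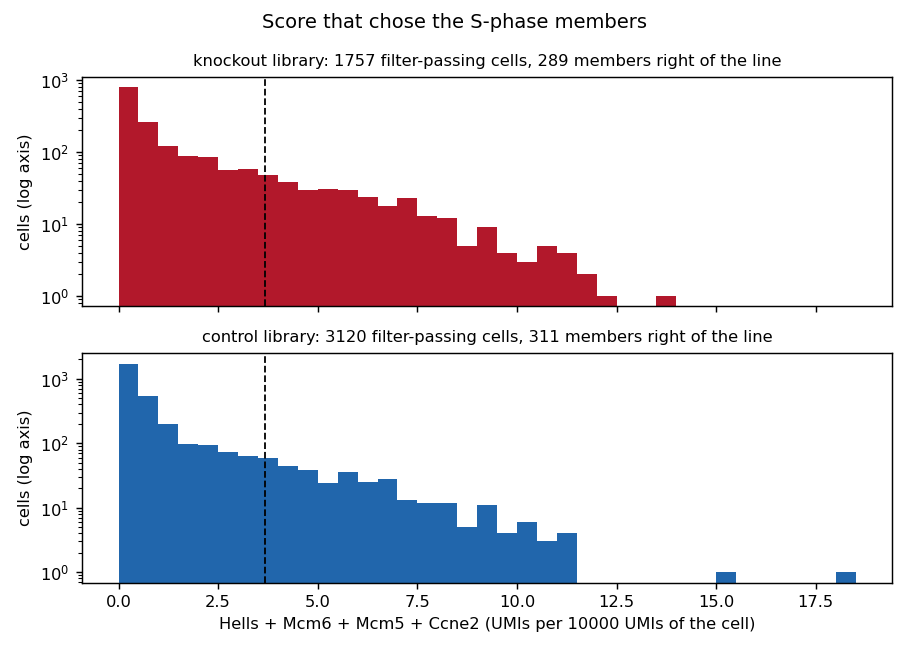
Number of tumour cells passing the filter (vertical, log axis) by summed level of Hells, Mcm6, Mcm5 and Ccne2 in UMIs per 10000 (horizontal), knockout above control. Cells right of the dashed line at 3.67 are the S-phase cells, 289 in the knockout and 311 in the control library, and no gap in the distribution lies at the line.

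S-phase cells made up a larger share of the tumour cells in the knockout library. The share was 16.4% (14.7 to 18.3, Clopper-Pearson) in the knockout library and 9.97% (8.94 to 11.1) in the control library, a ratio of 1.65 (log2 0.72, 0.49 to 0.96). Counted among tumour cells that also include those high for Top2a, Mki67 and Cenpf, it was 12.8% in the knockout and 8.54% in the control library. The cells high for those mitosis genes were also the larger share in the knockout, 22.1% against 14.3% in the control.

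The share was also higher in the knockout at each other threshold of the score that was counted. A score of at least 2 was met by 28.4% of knockout and 17.9% of control tumour cells, of at least 5 by 10.5% of knockout and 5.93% of control cells, and of at least 8 by 2.62% in the knockout and 1.51% in the control. With every cell thinned to 5000 UMIs, which removes the depth difference, at least 4 per 10000 was met by 19.9% (18 to 21.8) of knockout and 12.5% (11.4 to 13.7) of control cells. Tumour cells that passed the filter made up 32.0% of knockout barcodes with at least 5000 UMIs and 49.4% of control barcodes, a proportion the mCherry sort can set. Its part in the S-phase shares was not tested.

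The score genes themselves, given as a description because they chose the cells, had these levels. Hells stood at 243 CPM in knockout S-phase cells and 35.0 in other knockout tumour cells, and at 215 CPM in control S-phase cells and 25.3 in other control cells. Mcm6 was at 224 CPM in S-phase and 43.1 in other cells of the knockout, and at 223 CPM in S-phase and 33.6 in other cells of the control. Mcm5 was at 129 CPM in S-phase and 14.2 in other cells of the knockout, and at 141 CPM in S-phase and 12.6 in other cells of the control. Ccne2 was at 14.4 CPM in S-phase and 1.87 in other cells of the knockout, and at 12.5 CPM in S-phase and 1.44 in other cells of the control. Every score gene thus stood between 5.18-fold (Mcm6, knockout) and 11.2-fold (Mcm5, control) above the other cells.

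All genes were then compared between S-phase cells and the other tumour cells of the same library. Genes of the selection rule, the score genes among them, were left in the counts over all genes. Because the score orders these same cells, the values describe the cells chosen and carry no test. Of 14535 genes with at least 20 UMIs over both cell groups of each library, 977 (6.72%) were at least 1.5-fold higher in S-phase cells in both libraries, and 1565 (10.8%) at least 1.5-fold lower. The median log2 ratio over all these genes was -0.10 in the knockout and -0.09 in the control, and with ratios taken from that median the split became 1239 higher and 1262 lower. Knockout and control gave largely overlapping calls: the shared 977 were 69.0% of the 1416 higher in the knockout and 66.9% of the 1461 higher in the control.

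Replication genes stood far above that background. Across 9 lists of the replication machinery, 105 of 128 measured genes outside the score were at least 1.5-fold higher in S-phase cells in both libraries and 0 were lower, with a median log2 ratio of 1.91 in the knockout and 2.21 in the control. All 128 summed to 7545 CPM in knockout S-phase cells, against 3237 in other knockout cells, and to 7654 in control S-phase cells, against 2955 in other control cells. In single cells the lists took a median of 67.4 UMIs per 10000 in knockout S-phase cells (10th to 90th percentile 47.7 to 104), against 28.1 (20.9 to 44.5) in the other knockout cells. In the control the median was 70.3 (49.6 to 110) in S-phase cells and 27.0 (20.1 to 39.4) in other cells. The ranges overlap little: 7.56% of the other knockout cells and 3.13% of the other control cells reached the 10th percentile of the S-phase cells of their library.

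Of the origin licensing genes, 10 of 14 were at least 1.5-fold higher in both libraries. Cdc6, which helps load the MCM helicase, was at 25.6 CPM in knockout S-phase cells and 1.52 in other knockout cells, and at 30.1 CPM in control S-phase cells and 0.982 in other control cells. That is a difference of 16.9-fold in the knockout and 30.7-fold in the control. The MCM subunit Mcm3 was at 133 CPM in S-phase and 18.5 in other cells of the knockout, and at 155 CPM in S-phase and 17.8 in other cells of the control, and Mcm4 at 76.2 CPM in S-phase and 14.5 in other cells of the knockout, and at 109 CPM in S-phase and 16.2 in other cells of the control. Gmnn, the inhibitor of Cdt1 that prevents a repeat of licensing, was 6.96-fold higher in knockout and 8.69-fold higher in control S-phase cells, and Cdt1 itself 3.75-fold in the knockout and 3.12-fold in the control. The 4 genes that were not past 1.5-fold in both were the origin recognition subunits Orc3, Orc4 and Orc5 and the MCM-binding protein Mcmbp. Orc4, for example, was at 52.6 CPM in S-phase and 48.9 in other cells of the knockout, and at 50.8 CPM in S-phase and 48.6 in other cells of the control, whereas Orc1, the subunit known to vary over the cycle, was at 14.4 CPM in S-phase and 2.62 in other cells of the knockout, and at 12.9 CPM in S-phase and 1.97 in other cells of the control.

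All 14 genes of origin firing were at least 1.5-fold higher in S-phase cells of both libraries. Mcm10, which helps activate the loaded helicase, was at 21.6 CPM in S-phase and 1.38 in other cells of the knockout, and at 21.5 CPM in S-phase and 0.795 in other cells of the control. The GINS subunit Gins2 was at 85.8 CPM in S-phase and 22.7 in other cells of the knockout, and at 100.4 CPM in S-phase and 21.5 in other cells of the control. The kinase gene Cdc7 stood 5.21-fold above other cells in the knockout and 6.17-fold in the control, and its partner Dbf4 1.89-fold in the knockout and 2.17-fold in the control.

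Among polymerases, clamp and clamp loader, 17 of 19 were higher. Pole, the catalytic subunit of the leading-strand polymerase, was at 37.6 CPM in knockout S-phase cells and 3.91 in other knockout cells, and at 33.3 CPM in control S-phase cells and 2.32 in other control cells. Pcna, the sliding clamp, was at 156 CPM in S-phase and 42.4 in other cells of the knockout, and at 198 CPM in S-phase and 51.6 in other cells of the control. The primase subunit Prim1 was 5.76-fold higher in the knockout and 8.03-fold in the control. Pold4, the smallest subunit of polymerase delta, was the lowest of the list, at 103 CPM in S-phase and 115 in other cells of the knockout, and at 91.9 CPM in S-phase and 102 in other cells of the control.

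The Okazaki fragment list had 8 of 9 genes higher, with Lig1, the ligase that joins the fragments, at 126 CPM in S-phase and 25.2 in other cells of the knockout, and at 124 CPM in S-phase and 19.2 in other cells of the control. Deoxynucleotide supply had 11 of 12 higher. Rrm2, the regulated subunit of ribonucleotide reductase, was at 72.0 CPM in S-phase and 5.85 in other cells of the knockout, and at 85.0 CPM in S-phase and 5.03 in other cells of the control. Samhd1, which degrades deoxynucleotides, was the exception, at 108 CPM in S-phase and 128 in other cells of the knockout, and at 90.2 CPM in S-phase and 78.8 in other cells of the control.

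Chromatin assembly and methylation upkeep had 12 of 15 genes higher. Uhrf1, which brings the maintenance methyltransferase to newly copied DNA, was at 78 CPM in S-phase and 9.60 in other cells of the knockout, and at 90.7 CPM in S-phase and 7.68 in other cells of the control, and that enzyme, Dnmt1, was at 117 CPM in S-phase and 40.6 in other cells of the knockout, and at 104 CPM in S-phase and 28.9 in other cells of the control. Repair by homologous recombination was the list with the highest median ratio: all 21 measured genes were higher, with a median of 2.47 in the knockout and 3.0 in the control. Against the tumour cells left out as high for Top2a, Mki67 and Cenpf, this list was not higher in S-phase cells. That median log2 ratio was -0.28 in the knockout and -0.01 in the control. Rad51ap1, which acts in this repair pathway, was at 14 CPM in S-phase and 0.943 in other cells of the knockout, and at 16.6 CPM in S-phase and 0.520 in other cells of the control, which is 14.8-fold in the knockout and 31.8-fold in the control. Brca1 was at 35.1 CPM in S-phase and 2.29 in other cells of the knockout and at 30.6 CPM in S-phase and 1.36 in other cells of the control, and the exonuclease gene Exo1 at 17.8 CPM in S-phase and 1.03 in other cells of the knockout and at 19.1 CPM in S-phase and 0.727 in other cells of the control.

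The checkpoint and cohesion lists were mixed. Of 14 checkpoint and fork protection genes 8 were higher, among them Clspn, the adaptor that lets Atr activate Chek1, at 40.2 CPM in S-phase and 3.67 in other cells of the knockout, and at 41.0 CPM in S-phase and 1.90 in other cells of the control. Chek1 was 7.93-fold higher in the knockout and 9.54-fold in the control. The kinase Atr was at 24.9 CPM in S-phase and 18.6 in other cells of the knockout, and at 20.8 CPM in S-phase and 16.5 in other cells of the control. Wee1, which restrains entry into mitosis, was at 62.4 CPM in S-phase and 92.9 in other cells of the knockout, and at 42.7 CPM in S-phase and 62.6 in other cells of the control, the lowest ratio of the list in both. Of 10 cohesion genes 4 were higher. These were Esco2, Chtf18, Dscc1 and Cdca5, which establish or lock cohesion at the fork, while the ring subunits Smc1a, Smc3 and Rad21 were not past 1.5-fold (Smc3 at 193 CPM in S-phase and 133 in other cells of the knockout, and at 157 CPM in S-phase and 115 in other cells of the control).

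**Figure D2:**
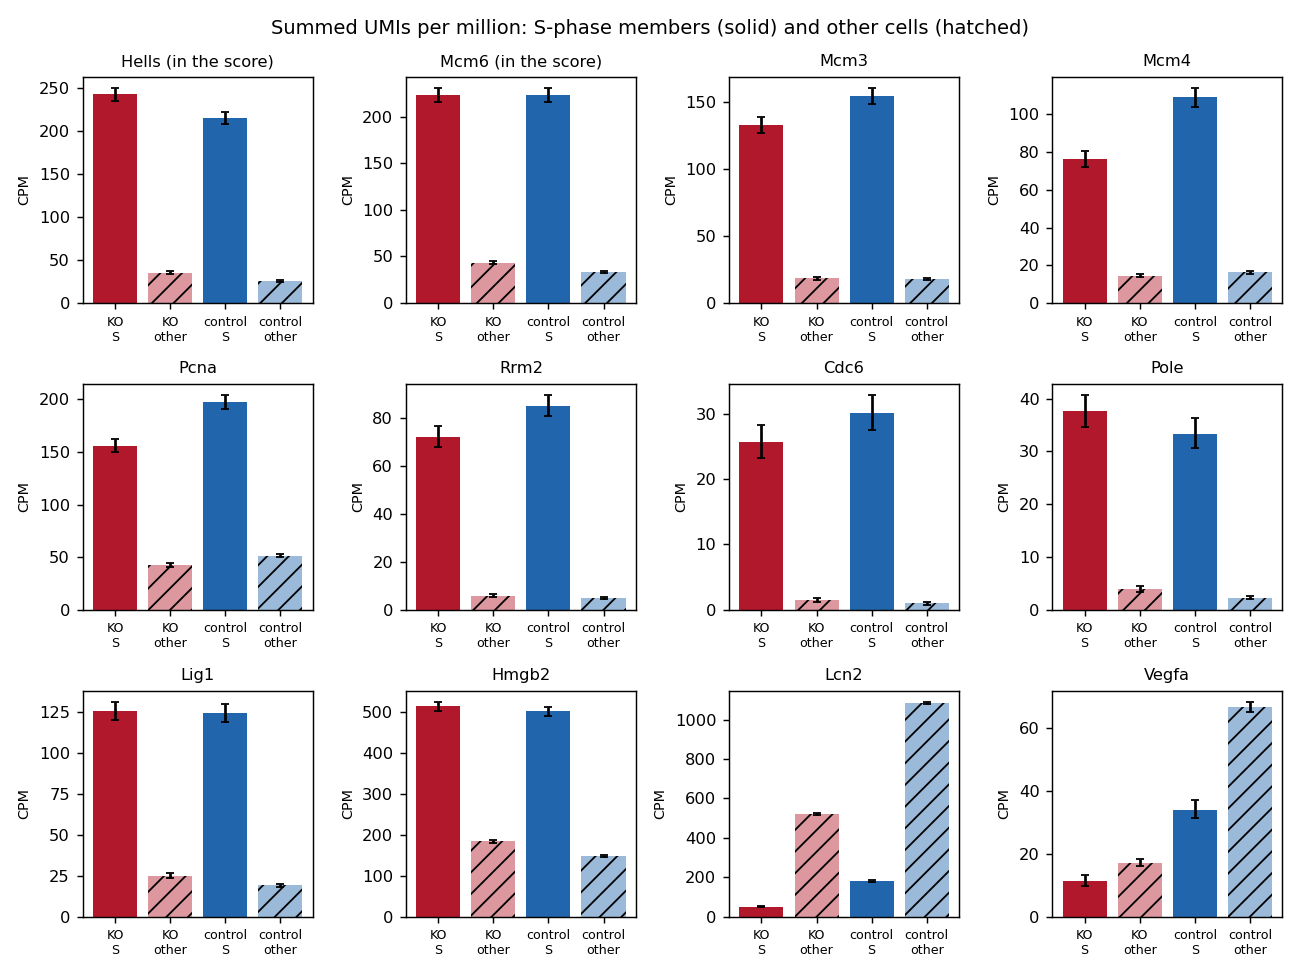
CPM (vertical, linear from 0) of 12 genes in S-phase cells (solid) and other tumour cells (hatched) of the knockout (left pair) and control (right pair) library, with exact Poisson intervals. Hells and Mcm6 are in the score. The other replication genes and Hmgb2 stand higher in S-phase cells of both libraries, and Lcn2 and Vegfa stand lower.

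Shares of cells with a UMI were compared at equal depth. Thinned to 1000 UMIs, Rrm2 was seen in 6.23% of knockout S-phase cells and 0.545% of other knockout cells, and in 6.43% of control S-phase cells and 0.570% of other control cells. As background for free RNA, the same share was counted in neutrophil-like barcodes, high for S100a8 and S100a9 and nearly without keratin, which number 153 (median 2822 UMIs) in the knockout and 338 (median 2596) in the control. Rrm2 had a UMI in 0 of these in both libraries, which allows a share of up to 1.96% in the knockout and 0.888% in the control. Pcna was seen in 12.1% of knockout and 19.3% of control S-phase cells, but in 4.56% of the other knockout and 5.05% of the other control cells, against 6.54% of knockout and 6.51% of control neutrophil-like barcodes. For Pcna the share in the other tumour cells did not exceed that in neutrophil-like barcodes, and whether those barcodes hold free RNA or Pcna RNA of their own was not tested. Hells, at 20.8% of knockout and 21.2% of control S-phase cells, had a UMI in 0 neutrophil-like barcodes of either library.

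Levels followed the score beyond the boundary (plot of levels along the score). The replication lists summed to 2603 CPM in knockout cells with a score of 0, to 5822 CPM in the S-phase cells of the lowest 200 scores and to 9329 CPM in those of the highest 200. In the control the same steps were 2512, 5850 and 9667 CPM. Cdc6 was at 0.318, 9.15 and 45.5 CPM at these steps in the knockout, and at 0.339, 15.9 and 51.0 CPM in the control. The S-phase cells are therefore no uniform class, and those just inside the boundary are nearer to the cells just outside it (4868 CPM of replication genes in the knockout, 4633 in the control) than to the top of the score.

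**Figure D3:**
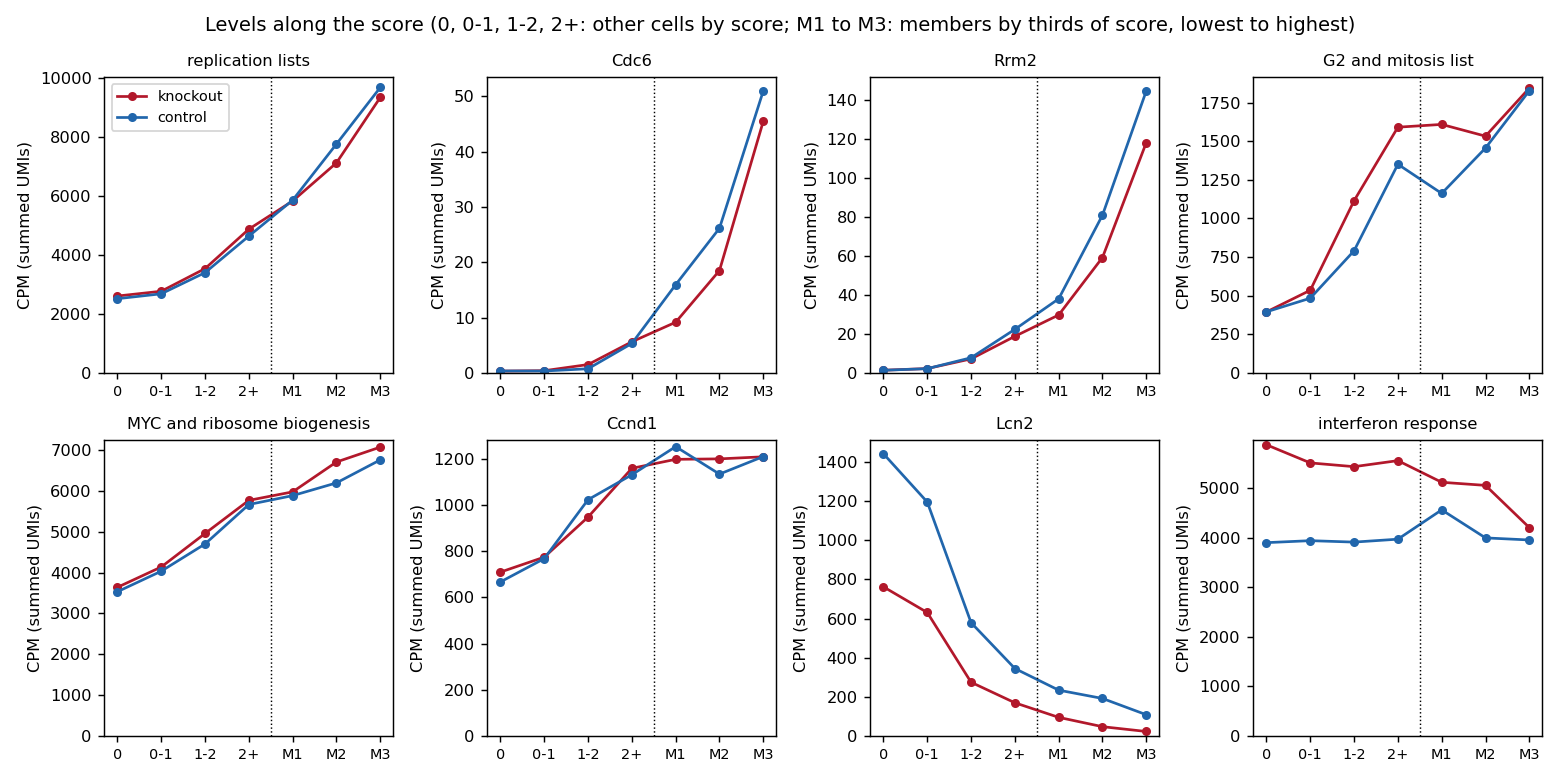
CPM (vertical, from 0) of 8 lists or genes in cells binned by score (horizontal): a score of 0, above 0 to 1, 1 to 2 and 2 up to the boundary, then S-phase cells in 3 sets of 200 from low to high score, right of the dotted line. Knockout is red and control blue. Replication genes, Cdc6 and Rrm2 are highest at the highest scores and Lcn2 is lowest there, in both libraries.

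Across tumour cells, the genes whose levels went most with the score were other replication genes. The likeness is the Pearson correlation of log-scaled levels with the log-scaled score over the 1757 knockout and 3120 control tumour cells, among 11201 genes with a UMI in at least 5% of cells, and cells of a library share its depth and free RNA. Mcm3 led with r = 0.78 in the knockout and 0.787 in the control. Mcm4 followed at 0.697 in each, and Uhrf1 was at 0.673 in the knockout and 0.659 in the control. Chek1, Gmnn, Lig1, Prim1, Gins2, Tipin and Mcm2 followed, and the last of them, Mcm2, was at 0.649 in the knockout and 0.594 in the control. All 10 belong to the replication lists.

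Regulators of the transition into S phase were partly higher. Of 15 E2F and pocket protein genes, 8 were at least 1.5-fold higher in both libraries. E2f1, an activator, was at 53.6 CPM in knockout S-phase cells and 18.6 in other knockout cells, and at 57.7 CPM in control S-phase cells and 15.2 in other control cells. E2f7, a repressor that is itself an E2F target, had the highest ratio, at 13.9 CPM in S-phase and 1.52 in other cells of the knockout, and at 15.6 CPM in S-phase and 0.962 in other cells of the control. The repressor E2f4 and the pocket protein genes Rb1 and Rbl2 were not past 1.5-fold higher, and Rbl2, tied to quiescence, was at 10.7 CPM in S-phase and 17.4 in other cells of the knockout, and at 9.61 CPM in S-phase and 13.4 in other cells of the control.

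Of 15 cyclins, kinases and inhibitors of G1 and S, 5 were higher and 1 lower. Ccne1, the other cyclin E and not part of the score, was at 6.86 CPM in S-phase and 0.943 in other cells of the knockout, and at 7.08 CPM in S-phase and 0.707 in other cells of the control. Ccna2, Cdk2, Skp2 and Cks1b were the other higher genes. Ccnd1, the cyclin D of G1, was at 1204 CPM in S-phase and 859 in other cells of the knockout, and at 1201 CPM in S-phase and 816 in other cells of the control, short of 1.5-fold. The gene lower in both was the Cdk4 and Cdk6 inhibitor Cdkn2c, at 78.6 CPM in S-phase and 127 in other cells of the knockout, and at 92.1 CPM in S-phase and 163 in other cells of the control. The p27 gene Cdkn1b, at 30.0 CPM in S-phase and 45.7 in other cells of the knockout, and at 29.4 CPM in S-phase and 44.1 in other cells of the control, was close behind.

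The G2 and mitosis list was also higher, although cells high for Top2a, Mki67 and Cenpf had been left out. Of 39 genes 26 were higher and 0 lower, with a median log2 ratio of 1.05 in the knockout and 1.04 in the control. The higher genes included Cdk1 (78.7 CPM in S-phase and 29.1 in other cells of the knockout, and at 96.1 CPM in S-phase and 27.1 in other cells of the control), the chromatin protein gene Hmgb2 (514 CPM in S-phase and 184 in other cells of the knockout and at 502 CPM in S-phase and 147 in other cells of the control) and the condensin subunit Smc2 (85.5 CPM in S-phase and 17.9 in other cells of the knockout and at 79.6 CPM in S-phase and 12.8 in other cells of the control). The mitotic cyclin gene Ccnb1, the kinase genes Aurka, Aurkb and Bub1 and the spindle genes Tpx2 and Kif11 were also among the higher ones, whereas Cdc20, Plk1, Hmmr and Cenpa were among those not past 1.5-fold in both. Set against the 499 knockout and 521 control cells that failed the mitosis filter alone, the list was lower in S-phase cells, by a median log2 of -2.60 in the knockout and -3.08 in the control, while the replication lists differed by 0.05 in the knockout and 0.26 in the control. The filter used 3 mitosis genes, so that last contrast is a description.

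The list of replication-dependent histone genes followed the replication lists only in part. Most mRNAs of this class, though not of every gene listed, end in a stem-loop in place of a poly(A) tail. The libraries were primed at the 3′ end, so the counts are of whatever poly(A) forms were present. Of 28 measured genes, 8 were higher and 4 lower in both libraries, with a median log2 ratio of 0.42 in the knockout and 0.20 in the control. The summed level had the opposite sign, 488 CPM in knockout S-phase cells and 560 in other knockout cells, and 350 CPM in control S-phase cells and 453 in other control cells. These sums lean on H1f0 and Hist1h2bc, the listed genes with most UMIs, so they do not stand for the class. H1f0 encodes a linker histone that is not replication-dependent, although it was listed here. H1f0 was at 156.5 CPM in S-phase and 225.6 in other cells of the knockout, and at 137.2 CPM in S-phase and 214.7 in other cells of the control. The linker histone Hist1h1b was at 25.8 CPM in S-phase and 4.80 in other cells of the knockout, and at 18.7 CPM in S-phase and 4.69 in other cells of the control, although 16.9% of its UMIs in knockout and 21.7% in control S-phase cells lay in 1 cell. Hist1h2bc, at 68.1 CPM in S-phase and 144 in other cells of the knockout, and at 33.2 CPM in S-phase and 94.4 in other cells of the control, and Hist1h1c, at 22.6 CPM in S-phase and 46.1 in other cells of the knockout and at 9.24 CPM in S-phase and 36.4 in other cells of the control, were lower. Histone genes are near-identical copies, so reads may be assigned unevenly among them.

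**Figure D4:**
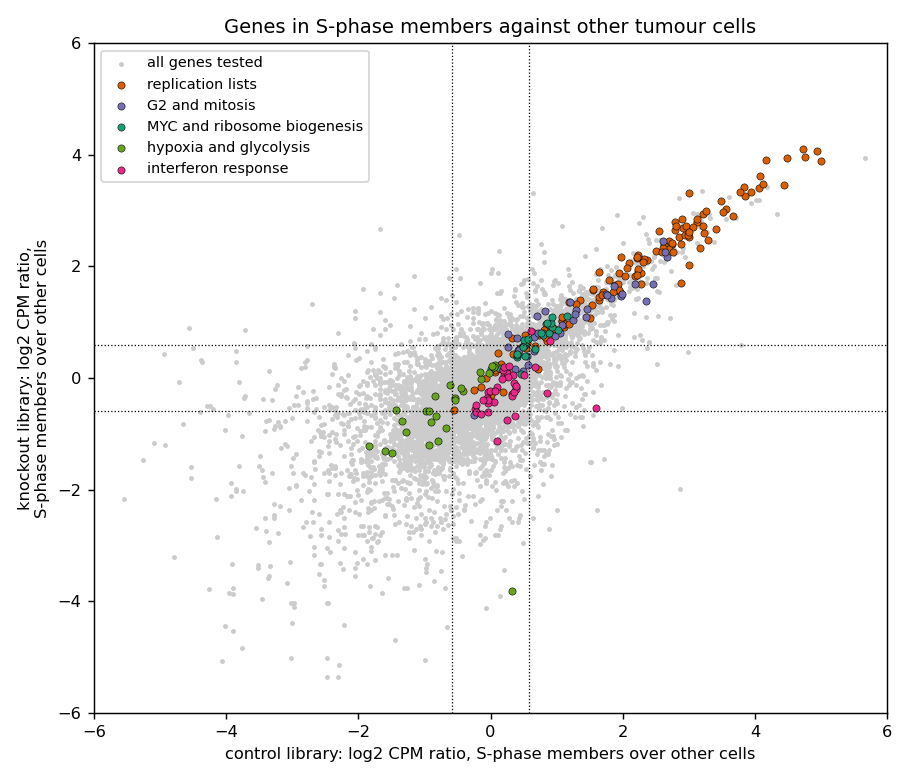
Each point is a gene, placed by its log2 CPM ratio of S-phase cells over other tumour cells in the control (horizontal) and knockout (vertical) library, and dotted lines mark 1.5-fold. Genes beyond the axes or with 0 UMIs in a group are not drawn. Replication genes run along the diagonal at the upper right, 105 of 128 past the lines, the hypoxia list lies at the lower left, and the interferon list lies near the middle.

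Some growth genes were higher in S-phase cells. Of 23 MYC and ribosome biogenesis genes, 10 were past 1.5-fold upwards and 0 downwards, and the median log2 ratio was 0.68 in the knockout and 0.57 in the control. Against the cells that failed the mitosis filter alone, the median was 0.08 in the knockout and 0.33 in the control. Ncl, the nucleolar protein nucleolin, was at 1230 CPM in S-phase and 720 in other cells of the knockout, and at 1125 CPM in S-phase and 648 in other cells of the control, and Srm, which makes spermidine, at 102 CPM in S-phase and 47.2 in other cells of the knockout and at 100.1 CPM in S-phase and 45.0 in other cells of the control. Cad, which starts pyrimidine synthesis, was 2.14-fold higher in the knockout and 1.90-fold in the control. Myc itself was at 64.1 CPM in S-phase and 57.5 in other cells of the knockout, and at 62.1 in both cell groups of the control.

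Many hypoxia genes were lower in S-phase cells. Of 26 hypoxia and glycolysis genes, 12 were at least 1.5-fold lower and 0 higher, with a median of -0.59 in the knockout and -0.73 in the control. Per cell, scaled as for the replication lists, the list's median sum was 59.5 in knockout S-phase cells and 55.3 in other knockout cells. In the control it was 55.8 in S-phase and 56 in other cells. The 90th percentile was 98.8 in S-phase and 122 in other cells of the knockout. For the control it was 84.3 in S-phase and 131 in other cells. Against the cells that failed the mitosis filter alone, the median log2 ratio was -0.05 in the knockout and -0.23 in the control. Bnip3, a mitophagy receptor induced by HIF, was at 28.9 CPM in S-phase and 67.2 in other cells of the knockout, and at 22.7 CPM in S-phase and 81.1 in other cells of the control. The carbonic anhydrase gene Car9 was at 32.8 CPM in S-phase and 81.3 in other cells of the knockout, and at 18.9 CPM in S-phase and 57.1 in other cells of the control, and Vegfa, the angiogenic growth factor, at 11.3 CPM in S-phase and 17.2 in other cells of the knockout and at 34.1 CPM in S-phase and 66.8 in other cells of the control. Glycolytic enzymes were not past 1.5-fold, with Gapdh at 1825 CPM in S-phase and 1847 in other cells of the knockout, and at 1648 CPM in S-phase and 1815 in other cells of the control. Of 22 genes known to respond to tissue dissociation, 6 were lower and 0 higher, against 10.8% of all genes lower, among them Fos at 369 CPM in S-phase and 836 in other cells of the knockout, and at 646 CPM in S-phase and 1258 in other cells of the control. Among p53 targets 2 of 20 were higher and 4 lower, led downwards by Gadd45a at 39.5 CPM in S-phase and 164 in other cells of the knockout, and at 74.8 CPM in S-phase and 221 in other cells of the control.

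Of 14 genes that lead tumour cell states, 2 were higher and 5 lower in S-phase cells of both libraries than in the other tumour cells. Against the cells that failed the mitosis filter alone, the median log2 ratio of this list was 0.03 in each library. Lcn2, a secreted siderophore-binding protein, was at 51.5 CPM in knockout S-phase cells and 520 in other knockout cells, and at 181 CPM in control S-phase cells and 1085 in other control cells. It was lowest at the highest scores, 22.1 CPM in the knockout and 107.9 in the control, against 762 CPM in the knockout and 1443 CPM in the control at a score of 0. The growth hormone receptor gene Ghr was at 146 CPM in S-phase and 400 in other cells of the knockout, and at 71.6 CPM in S-phase and 211 in other cells of the control. Spp1, which encodes the secreted protein osteopontin, was at 1796 CPM in S-phase and 5131 in other cells of the knockout, and at 2373 CPM in S-phase and 4832 in other cells of the control. In the other direction, the basal keratin gene Krt14 was at 169 CPM in S-phase and 58.6 in other cells of the knockout, and at 84.3 CPM in S-phase and 29.8 in other cells of the control, and the protease gene Mmp9 at 82.4 CPM in S-phase and 24.2 in other cells of the knockout and at 223 CPM in S-phase and 72.4 in other cells of the control. Of 26 chemokines and growth factors, 8 were lower and 0 higher in both libraries.

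A further ranking left out the genes of the selection rule and the lists of replication, S-phase regulators, G2 and mitosis, and histones, but no other list. In it, the genes with the ratios farthest from 0 upwards were Lrr1, Kntc1, Cenpk, Aunip, Fam111a, BC030867, Cenph, Polq, Rad51b and Cit. Lrr1, known as the substrate receptor that removes the helicase at the end of replication, was at 9.17 CPM in S-phase and 0.593 in other cells of the knockout, and at 9.92 CPM in S-phase and 0.196 in other cells of the control. Polq, the polymerase of end joining, was at 6.99 CPM in S-phase and 0.768 in other cells of the knockout, and at 7.02 CPM in S-phase and 0.422 in other cells of the control, and the centromere gene Cenpk was at 22.4 CPM in S-phase and 2.37 in other cells of the knockout and at 19.1 CPM in S-phase and 1.56 in other cells of the control. The genes farthest downwards were Fetub, Col3a1, Slc6a2, Col1a1, Chil1, Slit2, Lcn2, Prkg1, Saa1 and Col1a2. Several of these belong to fibroblasts: Col1a1 was at 0.962 CPM in S-phase and 14.9 in other cells of the knockout, and at 0.801 CPM in S-phase and 8.76 in other cells of the control.

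Markers of other cell types were mostly lower in S-phase cells. The 8 fibroblast markers summed to 25.2 CPM in knockout S-phase cells and 68.1 in other knockout cells, and to 10.0 CPM in control S-phase cells and 59.2 in other control cells, with Dpt at 0 in S-phase cells of both. The 10 macrophage markers summed to 30.2 CPM in S-phase and 58.6 in other cells of the knockout, and to 34.7 CPM in S-phase and 52.5 in other cells of the control, and the 8 mammary gland markers to 38.9 CPM in S-phase and 84.4 in other cells of the knockout and to 11.3 CPM in S-phase and 33.2 in other cells of the control, with Csn2, Lalba, Krt5, Ltf and Elf5 at 0 in control S-phase cells. The 8 neutrophil markers summed to 3.21 CPM in S-phase and 4.14 in other cells of the knockout, and to 6.53 CPM in S-phase and 5.90 in other cells of the control, the 10 T and NK markers to 2.89 CPM in S-phase and 3.33 in other cells of the knockout and to 0.739 CPM in S-phase and 2.15 in other cells of the control, the 7 dendritic markers to 4.04 CPM in S-phase and 5.41 in other cells of the knockout and to 3.39 CPM in S-phase and 4.43 in other cells of the control, and the 4 B cell markers to at most 0.616 CPM in any of the 4 groups. The 7 endothelial markers summed to 44.9 CPM in S-phase and 51.0 in other cells of the knockout, and to 69.8 CPM in S-phase and 73.8 in other cells of the control. The 4 tumour epithelial markers stood at 804 CPM in S-phase and 767 in other cells of the knockout, and at 1022 CPM in S-phase and 925 in other cells of the control. The part of the admixed RNA in the lower collagen values was not tested.

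The remaining comparison set knockout against control within the S-phase cells. Fermt2, which encodes Kindlin-2, was at 12.2 CPM in knockout S-phase cells and 38.9 CPM in control S-phase cells, a log2 ratio of -1.67 (-1.91 to -1.43), and at 18 CPM in other knockout and 42.3 CPM in other control tumour cells. Counts at the 3′ end do not read the edited site, whose position the labels do not give. Of 12686 genes with at least 20 UMIs in S-phase cells of both libraries together, 1305 (10.3%) were at least 1.5-fold higher in the knockout and 827 (6.52%) at least 1.5-fold lower, with a median log2 ratio over all genes of 0.06. In the other tumour cells 2738 of 16270 (16.8%) were higher and 1179 (7.25%) lower, with a median of 0.10. These counts are of 1 library against 1.

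The replication lists differed little between knockout and control S-phase cells: 1 of 128 genes was at least 1.5-fold higher, 0 were lower and the median log2 ratio was 0.02. That gene was Rnaseh2c, a subunit of the enzyme that removes ribonucleotides from DNA, at 96.3 CPM in knockout and 58.0 CPM in control S-phase cells. Cells of both libraries had been chosen above 1 boundary of the score, which ties these levels together. In the other tumour cells the median was 0.23, with 20 of 128 genes higher and 1 lower. Of all genes in those cells 16.8% were higher and 7.25% lower, so the share of replication genes that was higher lay near that of all genes. Within the narrow range, Mcm4 (log2 -0.52, -0.62 to -0.41), the fork protection gene Tipin (-0.50, -0.59 to -0.41) and Dut, which removes dUTP (-0.55, -0.61 to -0.50), were lower in knockout S-phase cells, and Pola1, the catalytic subunit of the primase-polymerase, was higher (0.40, 0.33 to 0.47).

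Most histone genes and some mitosis genes were higher in knockout S-phase cells, and also in the other knockout tumour cells. Of 26 histone genes 18 were past 1.5-fold upwards and 0 downwards, and the median log2 ratio was 0.91, and in the other tumour cells 16 of 28 were higher, with a median of 0.69. Hist1h1c was at 22.6 CPM in knockout and 9.24 CPM in control S-phase cells, Hist1h2bc at 68.1 in the knockout and 33.2 in the control, and Hist1h4i at 16.7 in the knockout and 4.93 in the control. Of 39 mitosis genes 7 were higher, namely Ccnb1, Cdc25c, Plk1, Bub1b, Cdca3, Anln and Foxm1, and 0 were lower, with a median of 0.27, where 10.3% of all genes were higher. In the other tumour cells 12 of the 39 were higher and 1 lower, with a median of 0.48. Ccnb1, the mitotic cyclin B1, was at 9.75 CPM in knockout and 5.61 CPM in control S-phase cells.

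Some interferon response genes were higher in knockout than in control S-phase cells. Of 38 genes, 13 were at least 1.5-fold higher and 1 lower among S-phase cells, with a median log2 ratio of 0.42, and among the other tumour cells 22 were higher and 0 lower, with a median of 0.80. The difference between these medians was not tested, and the median of the S-phase cells was 0.65 when the 1200 highest scores were taken. In single S-phase cells the list took a median of 41.4 UMIs per 10000 in the knockout (10th to 90th percentile 18.1 to 82.3) and 36.3 (19.2 to 69.0) in the control, so the ranges overlap over most of their width. Ifit3, an interferon-induced antiviral protein, was at 46.8 CPM in knockout S-phase cells and 45.3 in other knockout cells, and at 12.3 CPM in control S-phase cells and 10.7 in other control cells. The checkpoint ligand gene Cd274 was at 37.8 CPM in S-phase and 60.9 in other cells of the knockout, and at 21.4 CPM in S-phase and 16.5 in other cells of the control. The gene lower in the knockout was the T cell chemokine Cxcl9, at 13.3 CPM in knockout and 38.9 CPM in control S-phase cells, with 22.2% of its UMIs in the knockout and 15.7% in the control in 1 cell.

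Seen within each library, the interferon list of S-phase cells against other cells had a median of -0.24 in the knockout and 0.23 in the control. Of its 38 genes, 2 were at least 1.5-fold higher and 6 lower in the knockout (background 9.74% and 17.8% of genes), and 5 higher and 0 lower in the control (background 10.1% and 16.9%). Among 22 genes of MHC class I presentation none was past 1.5-fold between knockout and control S-phase cells in either direction, with a median of 0.14, and B2m was at 1480 CPM in the knockout and 1885 in the control. Among 14 genes of a list on nucleic acid sensing in the cytosol, 2 were higher (Ifi205 and Rnaseh2c) and 1 lower (Aim2) in the knockout. These shares are near the 10.3% higher and 6.52% lower of all genes. The list is not limited to sensors, and Rnaseh2c, described above, is also counted in the replication lists. Cgas, the DNA sensor, was at 20.8 CPM in knockout S-phase cells and 6.91 in other knockout cells, and at 23 CPM in control S-phase cells and 6.88 in other control cells.

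**Figure D5:**
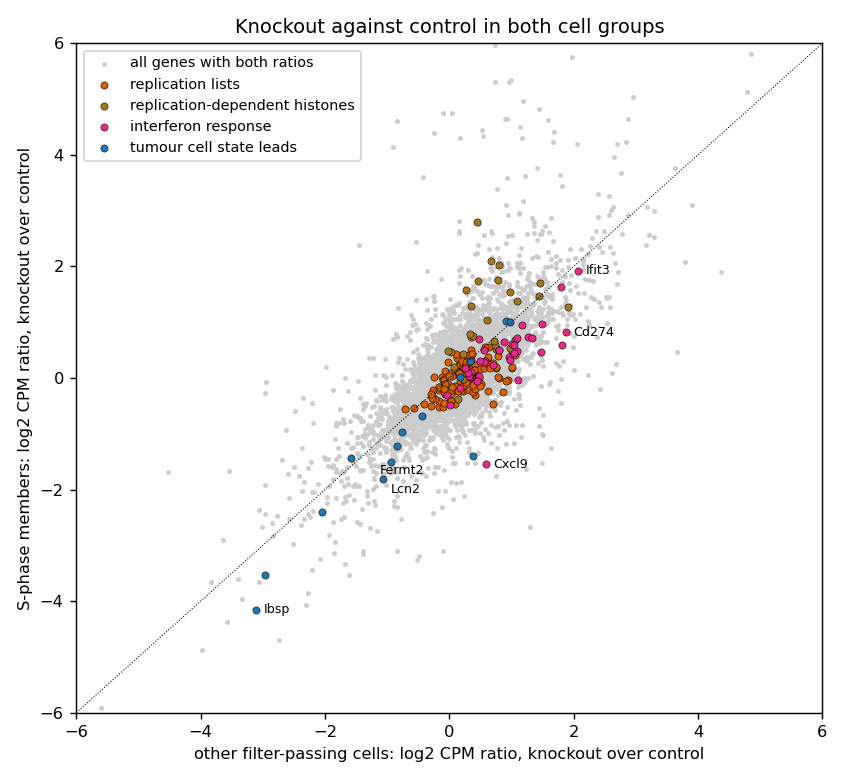
Each point is a gene, placed by its log2 CPM ratio of knockout over control in the other tumour cells (horizontal) and in S-phase cells (vertical), and the dotted line marks equal ratios. Genes beyond the axes or with 0 UMIs in a group are not drawn. Replication genes lie near 0, most histone genes above 0, the interferon list right of 0 and mostly under the line, and Fermt2 and Ibsp below 0.

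Of 26 chemokines and growth factors 3 were higher in knockout S-phase cells (Il33, Il34 and Pdgfc) and 10 lower, with a median of -0.30. Over all genes 10.3% were higher and 6.52% lower, so the share of this list that was higher lay near that of all genes. In the other tumour cells 6 of 28 were higher and 12 lower, with a median of -0.28. Ccl2, the monocyte chemokine, was at 2.12 CPM in knockout and 43.8 CPM in control S-phase cells, and 75.8% of its 33 UMIs in knockout S-phase cells lay in 1 cell. Vegfa was at 11.3 CPM in the knockout and 34.1 in the control. Of 14 genes that lead tumour cell states, 2 were higher and 10 lower, with Ibsp, a secreted bone matrix protein, at 12.3 CPM in the knockout and 220 in the control (log2 -4.16, -4.37 to -3.95). In the other tumour cells 2 of these 14 were higher and 8 lower. Among 26 adhesion genes 4 were lower, Fermt2, Itgb3, Itgb5 and Itga5, and 0 higher. In the other tumour cells 4 of 27 adhesion genes were lower and 2 higher. Itgb3, a subunit of the vitronectin receptor, was at 0.770 CPM in the knockout and 4.00 in the control, while Itgb1, the common beta subunit, was at 603 CPM in the knockout and 704 CPM in the control. Ccn2, a target of YAP, was at 13.4 CPM in the knockout and 50.2 CPM in the control.

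The genes ranked farthest upwards in knockout S-phase cells rest on few cells. They were Stc2, Ptn, Defb1, Igfbp5, Hp, Epdr1, Gpx3, Fam25c, Acot1 and Dennd2a, and for 8 of the 10 over 25% of the UMIs lay in 1 of 3 cells. Stc2, for example, had 209 UMIs in knockout S-phase cells, 58.4% of them in 1 cell, and 0 in control S-phase cells. Those 3 cells held mammary gland markers, here with Wfdc18 included, at 4098, 1411 and 1204 CPM, and none was called a doublet. Over all knockout S-phase cells the 8 markers without Wfdc18 summed to 38.9 CPM, and Wfdc18 was at 3.53 CPM. The exceptions were Epdr1, with 80 UMIs in 60 knockout cells and 0 in the control, which is at least 27.8-fold higher against 3 counts, and Dennd2a, with 79 UMIs in 53 knockout cells and 1 UMI in the control (82.3-fold, log2 interval 3.84 to 11.7). Chosen after these values were seen, the next genes with at most 25% of UMIs in 1 cell included Rgs2, a regulator of G protein signalling, at 30.9 CPM in the knockout and 3.69 in the control, and Camk4, a calmodulin-dependent kinase, at 15.7 CPM in the knockout and 1.60 CPM in the control.

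The genes farthest downwards in knockout S-phase cells were Pitx1, Rab6b, Grp, Ibsp, Ccl2, Rerg, Gpc4, F13a1, Sfrp1 and Gm17268. In control S-phase cells, Grp had 38.5% of its 65 UMIs in 1 cell, and the other genes had at most 11.8% there. Pitx1, a homeobox factor, had 0 UMIs in knockout and 115 UMIs in 72 control S-phase cells, at least 36.8-fold lower against 3 counts. Rab6b, a trafficking GTPase, had 6 UMIs in the knockout and 378 UMIs in 185 control S-phase cells, or 0.385 CPM in the knockout and 23.3 CPM in the control. Sfrp1, a secreted Wnt antagonist, was at 2.63 CPM in the knockout and 41.1 in the control. All 10 also stood lower in the knockout among the other tumour cells, where Rab6b was at 0.558 CPM in the knockout and 27.2 in the control and Sfrp1 at 3.11 CPM in the knockout and 31.5 CPM in the control.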

How the data were processed

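The data are 2 droplet libraries of single cells, 1 per group. The deposited matrix holds UMI counts (whole numbers) made by the authors for 32285 genes and 15288 barcodes. Per the submitters' processing notes the tool was Cell Ranger 2.1.1 with mm10, and per the file headers it was 6.0.1, which leaves the version uncertain. Suffix 1 was read as control and suffix 2 as knockout, from the library numbers in the labels alone. The libraries held 180774106 UMIs (knockout) and 214163620 UMIs (control).

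Counts were summed per library and cell group, scaled to CPM and compared as log2 ratios, with Poisson, Clopper-Pearson and conditional binomial 95% intervals, which cover counting error only and are too narrow where 1 cell holds many of a gene's UMIs. Genes needed at least 20 UMIs, and 1.5-fold was the size used for counts. A gene at 0 was given a bound against 3 counts over the group. Thinning drew 5000 or 1000 UMIs per cell without replacement. Scrublet in scanpy 1.11.5 called 201 of 6962 knockout and 217 of 7747 control cells doublets. Calls were kept in the main values and left out in an alternative.

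Named genes were, per list, the 4 with most UMIs and those with the highest and lowest ratios, and the 10 highest and 10 lowest outside the replication, regulator, mitosis and histone lists and for knockout over control (at least 50 UMIs and 2-fold, ranked by the interval bound nearest 0). The 10 most like the score were also named. Others were picked after values were seen. The members and lists were chosen with earlier results of these data known. Computation used scipy 1.17.1, numpy 2.4.6 and pandas 2.3.3 in Python 3.11.15, and figures matplotlib 3.10.9.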

Additional observations from a re-analysis of the deposited data

Results flagged for a closer look

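S-phase cells against other tumour cells went in opposite directions in the knockout and control libraries for several results, and none of these differences was tested. Of the lists other than markers, the interferon response list had a median log2 ratio of -0.24 in the knockout against 0.23 in the control, with the medians of its genes' interval bounds on 1 side of 0 in each library. Medians of other lists also differed in sign without meeting that condition: nucleic acid sensing (-0.16 in the knockout and 0.11 in the control), MHC class I (-0.14 in the knockout and 0.03 in the control), p53 targets (0.03 in the knockout and -0.05 in the control), adhesion (-0.05 in the knockout and 0.05 in the control) and YAP and SRF targets (0.02 in the knockout and -0.07 in the control). Of the genes named by rule, Grp, which encodes gastrin-releasing peptide, had counting intervals past 1.5-fold on opposite sides. Its log2 ratio was -1.49 in the knockout against 1.16 in the control, where the knockout value is a bound against 3 counts because its S-phase cells held 0 UMIs, and 38.5% of the control UMIs lay in 1 cell. Other named genes that differed in sign, such as Cxcl9 (-0.54 in the knockout and 1.60 in the control) and Gpc4 (-1.55 in the knockout and 0.40 in the control), had an interval short of 1.5-fold in at least 1 library. Outside the named genes, Slc2a6 (-1.99 in the knockout and 2.87 in the control), Xylt1 (-2.37 in the knockout and 1.61 in the control) and Gm26885 (1.34 in the knockout and -2.70 in the control) lay past 1.5-fold on opposite sides, each with at most 35 UMIs in the S-phase cells of a library. For Xylt1, 90% of the 20 UMIs in control S-phase cells lay in 1 cell, and knockout S-phase cells held 3 UMIs.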

How the results depend on the processing

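Over 9 results (share, counts of genes, list medians and Fermt2) and the alternatives tried, 115 values were compared with the main ones. Of these, 100 stayed within a range around the main value and 15 moved beyond it. The range was the counting interval for the share and Fermt2, and 1.5 times for a count of genes. For a list median it was the median of its genes' interval bounds, which is not an interval of the median itself. No ratio or list median changed sign, and a count of genes cannot. With the 1200 highest scores, the interferon median of knockout over control S-phase cells was 0.65 and the Fermt2 ratio -1.43. With filter and score taken after thinning to 5000 UMIs, which kept 361 of the 600 cells, the replication medians were 1.40 (knockout) and 1.74 (control). With the mitosis filter at 2 per 10000 the control median was 1.91. With the score made from Mcm2, Mcm4, Cdc6, Gins2, Dtl and Uhrf1, which kept 461 cells, the log2 share ratio was 0.43. With a floor of 5 UMIs, 2480 genes were higher and 1469 lower in knockout S-phase cells. With a floor of 100 UMIs, 573 were higher and 451 lower, and 846 were lower in S-phase than other cells of both libraries. At 2-fold the counts were 554 higher and 347 lower in the knockout, and 423 higher and 668 lower in S-phase cells. The floors and the larger fold change the genes counted by construction. The cause of the other shifts was not tested. Chosen after seeing the data, leaving out the 3 cells that hold most UMIs of ranked genes gave 1260 genes higher and 842 lower in the knockout. No paired analysis was possible because each group is 1 library with no replicate number. With 1 library per group, neither tumours nor clones can be told apart from the knockout.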
